A study of Mus musculus with 2 samples.

Results

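Glycolysis and the tricarboxylic acid (TCA) cycle are the routes by which hippocampal cells break glucose down. This account follows 37 genes of these routes, chosen by name from a list of their enzymes: 16 of glycolysis and lactate metabolism, 7 at the entry of pyruvate into mitochondria and 14 of the TCA cycle. The genes were matched to array probes by the single gene symbol of the platform annotation. Of the 37 genes, 34 had a named probe, with 64 probes in all, and 30 had a probe detected on at least 1 array. They were compared with 10416 detected genes among 19057 named ones.

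The tissue was hippocampus of ICR mice, which are outbred, read on Illumina bead arrays. For the CeCl3 array, RNA came from males given cerium chloride (CeCl3), a lanthanide salt, intragastrically every day for 90 days. For the control array it came from males given purified water in place of the salt. The label of the treated sample names 0.5, 1 and 2 mg per kg body weight together, so the dose, or mixture of doses, behind that array is unknown. An age of 4 weeks is given for both samples, and with 90 days of dosing this cannot be the age at which tissue was taken. The number of mice behind an array is not in the labels. The comparison of the arrays asks which hippocampal transcripts differ after exposure.

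With 1 array per group there is no replicate error, and the differences below carry no p-value. Values are log2 signals after background correction and quantile normalization, and a difference is always CeCl3 minus control. The 95% interval printed beside a difference covers the spread between beads of a probe within an array and nothing else. Each array lay on a BeadChip of its own, so treatment and BeadChip cannot be told apart. The share of the 45281 probes with a detected signal was 38.5% for CeCl3 and 36.3% for control. Against the labels of male sex, all 4 probes of Xist, the RNA that silences an X chromosome in female cells, gave a detected signal in the control and 0 of them in the CeCl3 sample. Of the Y-linked genes, 1 of 2 Eif2s3y probes was detected, on the CeCl3 array, while the Kdm5d and Uty probes were detected on neither. Whether a difference in sex contributes to the values below was not tested. Of 9 genes that mark hippocampal subfields or their principal neurons, 8 were detected, among them Prox1 of dentate granule cells (log2 signal 8.84 on the CeCl3 and 8.77 on the control array) and Wfs1 of CA1 neurons (10.76 on each). The median difference of the 8 was 0.00, with 4 higher and 4 lower. Zbtb20 lay at 0.40 on a cDNA clone probe. Neurod2 lay at 0.30 on its brighter probe and at -0.40 on the other. Neurod1 passed detection for control only, at a log2 signal of 6.14, close to the lowest detected value of that array. Its bound of 1.21-fold lower after CeCl3 leaves out bead error and is no firm minimum.

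In glycolysis, glucose is phosphorylated, split and oxidised to pyruvate in the cytosol, and lactate dehydrogenase interconverts pyruvate and lactate. Pyruvate that enters mitochondria is either oxidised to acetyl-CoA by the pyruvate dehydrogenase complex or carboxylated to oxaloacetate by pyruvate carboxylase. Kinases switch the complex off by phosphorylating it and phosphatases switch it on again. Acetyl-CoA is then oxidised in the TCA cycle. In brain, neurons rely heavily on this oxidative route, while astrocytes are known for strong glycolysis, lactate release and pyruvate carboxylation.

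Most enzymes of both routes were nearly level between the arrays. Differences of 1.5-fold or more were found for 3 of the 30 detected genes (Pdk1, Pdk2 and Pcx), a share no higher than the 12.7% of all detected genes that differed as much. The median log2 difference was -0.02 for the 11 detected glycolysis genes, -0.10 for the 6 detected genes of pyruvate entry and -0.03 for the 13 detected TCA cycle genes. The median over all 10416 genes was -0.04. Glycolysis and TCA cycle medians differed by 0.02 on the log2 scale, or by 0.02 again with the pyruvate entry genes counted to the TCA side. The bead interval of a single one of the 30 genes had a median half-width of 0.28.

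Of the 30 detected genes, 11 were higher and 19 lower on the CeCl3 array, where 55.8% of all genes were lower. This split depends on the scaling of the arrays. In the authors' series matrix, left unscaled, all genes had a median of 0.18, 22 of the 30 were higher and 8 lower, and all 3 group medians lay above 0 (0.05, 0.06 and 0.13). A difference of 1.2-fold or more was found for 1 gene on the higher side (Pdk1) and 3 on the lower side (Pdk2, Pcx and Pfkp), against 17.1% and 20.9% of all genes. A difference of 1.5-fold or more was found for Pdk1 (higher), Pdk2 and Pcx (both lower), against 6.61% and 6.12% of all genes. None of the 30 reached 2-fold, which 4.72% of all genes did. The bead interval lay clear of 0 for 2 genes on the higher side and 3 on the lower, against 7.76% and 12.6% of all genes.

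Brightness matters for this reading, because dim probes scatter more. Among the 22 genes with a mean log2 signal over 10, only Pfkp passed 1.2-fold, where 18.6% of all genes that bright did, and 0 passed 1.5-fold, where 1.15% did. Among the 8 dimmer genes, 3 passed 1.5-fold, where 18.3% of all such genes did. The 3 genes are Pdk1, Pdk2 and Pcx.

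**Figure D1:**
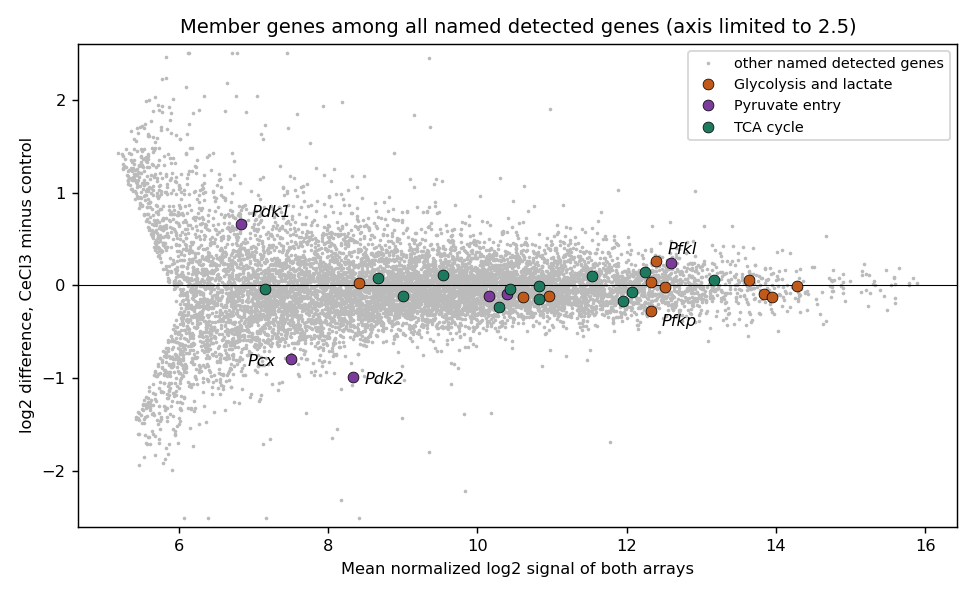
Log2 difference (CeCl3 minus control) against the mean normalized log2 signal of both arrays, with a point for each named detected gene, read from its brightest probe. Genes beyond 2.5 on the difference axis are drawn at that limit. The members lie in a narrow band around 0, apart from Pdk1 at 0.66, Pdk2 at -0.99 and Pcx at -0.79, which are among the dimmer ones.

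Among the 37 genes and their neighbours in pyruvate oxidation, the pyruvate dehydrogenase kinases Pdk2 and Pdk4 gave the largest differences. Pdk2, the kinase expressed in most tissues, had a log2 signal of 7.84 on the CeCl3 and 8.83 on the control array. It was 1.98-fold lower on the CeCl3 array (log2 difference -0.99, bead interval -1.35 to -0.62), on the only probe named for it. Pdk1, a kinase known as a target of hypoxia-inducible factor, went the other way. Its log2 signal was 7.16 on the CeCl3 and 6.49 on the control array, which is 1.58-fold higher (0.66, 0.07 to 1.25). Its second probe was detected on neither array.

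The remaining kinases, Pdk3 and Pdk4, were outside the 37 genes and were read from a list of further pyruvate dehydrogenase genes. Pdk4, the kinase known for its response to fasting and fatty acids, had a log2 signal of 8.55 on the CeCl3 and 9.42 on the control array and was 1.83-fold lower (-0.87, -1.21 to -0.54). Pdk3, which lies on the X chromosome, had 8.61 against 8.98 and was 1.29-fold lower (-0.37, -0.70 to -0.04). Of the 4 kinases, 3 were thus lower and 1 higher on the CeCl3 array, each with a bead interval clear of 0, where 20.4% of all genes had such an interval in either direction. Each kinase rests on 1 detected probe.

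The phosphatases that reverse this phosphorylation did not share a direction. For the catalytic subunit Pdp1 the brighter probe gave -0.33 (-0.61 to -0.06) and the other 0.14 (-0.20 to 0.48). The second catalytic subunit, Pdp2, lay at 0.11 (-0.11 to 0.33), and at 0.04 and -0.22 on dimmer probes. The regulatory subunit Pdpr lay at 0.29 (0.02 to 0.57). The further gene of the complex on that list, Pdhx, was not detected. The median of the 5 detected genes of that list was -0.33.

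Subunits of the pyruvate dehydrogenase complex itself differed little on their brightest probes. Pdha1, the catalytic E1 alpha subunit encoded on the X chromosome, had a log2 signal of 12.72 on the CeCl3 and 12.48 on the control array (0.24, -0.01 to 0.49). Pdhb, the E1 beta subunit, had 10.09 and 10.21 (-0.12, -0.54 to 0.30), and Dlat, the E2 acetyltransferase, 10.35 and 10.44 (-0.09, -0.40 to 0.22). All 3 intervals held 0. A dimmer Pdhb probe, designed on a cDNA clone, gave 0.71 (0.24 to 1.18). Dld, the E3 subunit shared with the oxoglutarate dehydrogenase complex, had 2 probes that were detected on neither array.

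Pcx encodes pyruvate carboxylase, which in brain is known chiefly from astrocytes. Its log2 signal was 7.10 on the CeCl3 and 7.89 on the control array, a 1.73-fold lower value (-0.79, -1.23 to -0.35), and its second probe was not detected. Astrocyte marker genes had a median difference of -0.04, with 8 of 12 detected members lower. Their bead interval lay below 0 in 3 and above 0 in 0, and their summed linear signal was 79765 on the CeCl3 and 79425 on the control array. Slc4a4 and Acsl6 lay lowest, at -0.50 and -0.33, with -0.16 and 0.02 on the other Acsl6 probes. The 4 higher members were Gja1 (0.23), Aldoc (0.21), Gfap (0.14) and Sox9 (0.10), with intervals that held 0 on their brightest probes. The part of astrocytes in the Pcx value was not tested. In bulk tissue, fewer cells of a type and less RNA per cell cannot be told apart.

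**Figure D2:**
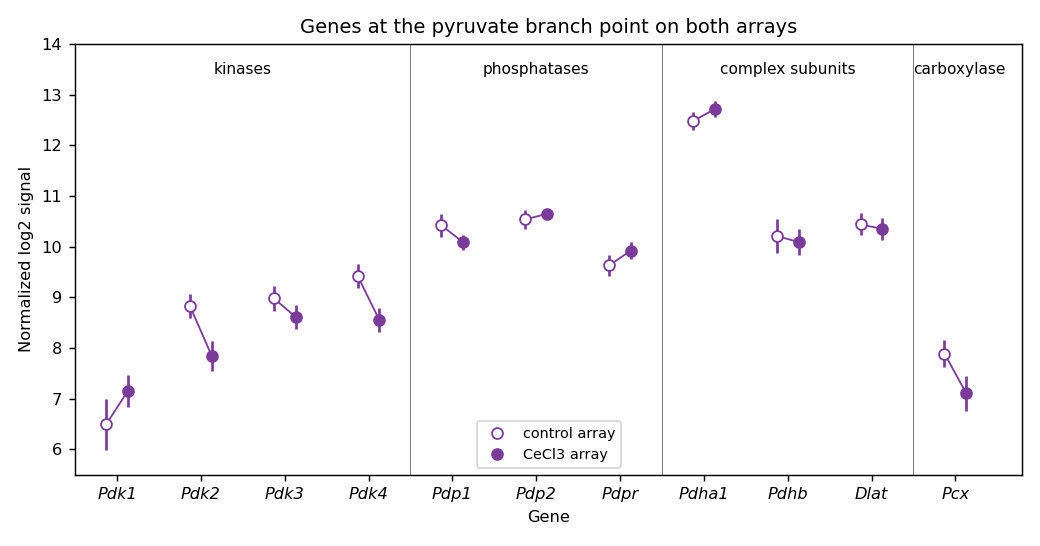
Normalized log2 signal of genes at the pyruvate branch point on the control array (open) and the CeCl3 array (filled), with 95% intervals over beads. Pdk2, Pdk4 and Pcx are lower on the CeCl3 array by 0.99, 0.87 and 0.79, Pdk1 is higher by 0.66, and the complex subunits Pdha1, Pdhb and Dlat differ by 0.24 at most.

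The promoters of Pdk1 and Pdk2 are shown because these kinases differed in opposite directions. The windows hold 300 bases, mostly upstream of the start farthest 5′ in RefSeq (build GRCm38.p6), with Pdk1 at chr2:71872974-71873273 on the plus strand and Pdk2 at chr11:95041322-95041621 on the minus strand. Capitals mark ACGTG or GCGTG on either strand, the core bound by hypoxia-inducible factors.
Pdk1: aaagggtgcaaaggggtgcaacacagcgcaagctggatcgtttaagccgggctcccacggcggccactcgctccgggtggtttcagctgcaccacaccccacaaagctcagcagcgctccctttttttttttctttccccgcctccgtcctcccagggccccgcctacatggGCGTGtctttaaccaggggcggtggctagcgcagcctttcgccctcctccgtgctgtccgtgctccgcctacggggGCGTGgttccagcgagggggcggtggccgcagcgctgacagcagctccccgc
Pdk2: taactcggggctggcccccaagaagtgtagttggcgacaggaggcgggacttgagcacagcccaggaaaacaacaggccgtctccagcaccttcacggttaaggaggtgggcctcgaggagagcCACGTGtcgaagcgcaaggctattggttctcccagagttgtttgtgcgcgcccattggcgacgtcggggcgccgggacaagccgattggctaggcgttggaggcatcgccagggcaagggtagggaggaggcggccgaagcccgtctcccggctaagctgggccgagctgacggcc
The Pdk1 window held 2 matches, both GCGTG. The Pdk2 window held ACGTG on each strand within a single CACGTG, which counts as 2 overlapping matches. In the same windows of Pdk3 and Pdk4 there were 4 matches and 1 match. Of 32851 promoter windows of this length, 43.8% held at least 1 match, so the motif is common and a match is a description of the letters alone.

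Among the 11 detected glycolysis genes, Pfkl and Pfkp had the largest differences in either direction. Phosphofructokinase, which commits glucose to glycolysis, is a tetramer of liver (Pfkl), muscle (Pfkm) and platelet (Pfkp) type subunits, and all 3 are made in brain. Pfkl had a log2 signal of 12.53 on the CeCl3 and 12.27 on the control array (0.26, 0.03 to 0.49), with 0.18 on a dim second probe. Pfkp had 12.19 and 12.47, which is 1.22-fold lower (-0.28, -0.46 to -0.10). Its other probes disagreed, at 0.10 (-0.24 to 0.45) and -0.80 (-1.32 to -0.28), the latter with log2 signals of 6.60 and 7.41. Pfkm lay at 0.05 (-0.19 to 0.30), and at -0.13 and 0.16 on its other probes. The subunits thus split around 0, and only Pfkl and Pfkp had intervals clear of it.

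Hexokinase 1, the enzyme that traps glucose in most brain cells, had log2 signals of 8.42 and 8.40 for Hk1 (0.02, -0.44 to 0.48). The aldolase Aldoa, which splits fructose bisphosphate, lay at 0.03 (-0.32 to 0.38). The triose phosphate isomerase Tpi1 had 3 detected probes, which gave -0.13 (-0.33 to 0.08), 0.04 and 0.34 (0.06 to 0.63) from the brightest to the dimmest. They did not share a direction, and only the dimmest had an interval clear of 0.

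The payoff steps were just as level. Gapdh, the glyceraldehyde phosphate dehydrogenase often used as a reference gene, had log2 signals of 13.79 on the CeCl3 and 13.89 on the control array (-0.10, -0.27 to 0.07). The X-linked phosphoglycerate kinase Pgk1 lay at -0.11 (-0.43 to 0.20), and the phosphoglycerate mutase Pgam1 at -0.12 (-0.55 to 0.31). Eno2, the neuronal enolase, had log2 signals of 14.28 and 14.29 (-0.01, -0.21 to 0.19). Ldha, the lactate dehydrogenase subunit that favours lactate formation, had 12.51 and 12.52 (-0.02, -0.24 to 0.21). All 5 intervals held 0. Levels of different probes are not compared here, since each probe has its own response.

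Some glycolysis genes could not be read. Pfkfb3, which makes the activator of phosphofructokinase, and Ldhb, the subunit that favours lactate use, had probes that were detected on neither array. The Ldhb probe was designed on a cDNA clone. Hk2, Gpi1 and Eno1 had no probe named here. A probe that is not detected does not show that its gene is silent, since widely expressed brain genes such as Snap25 and Tubb3 were not detected on this platform either.

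**Figure D3:**
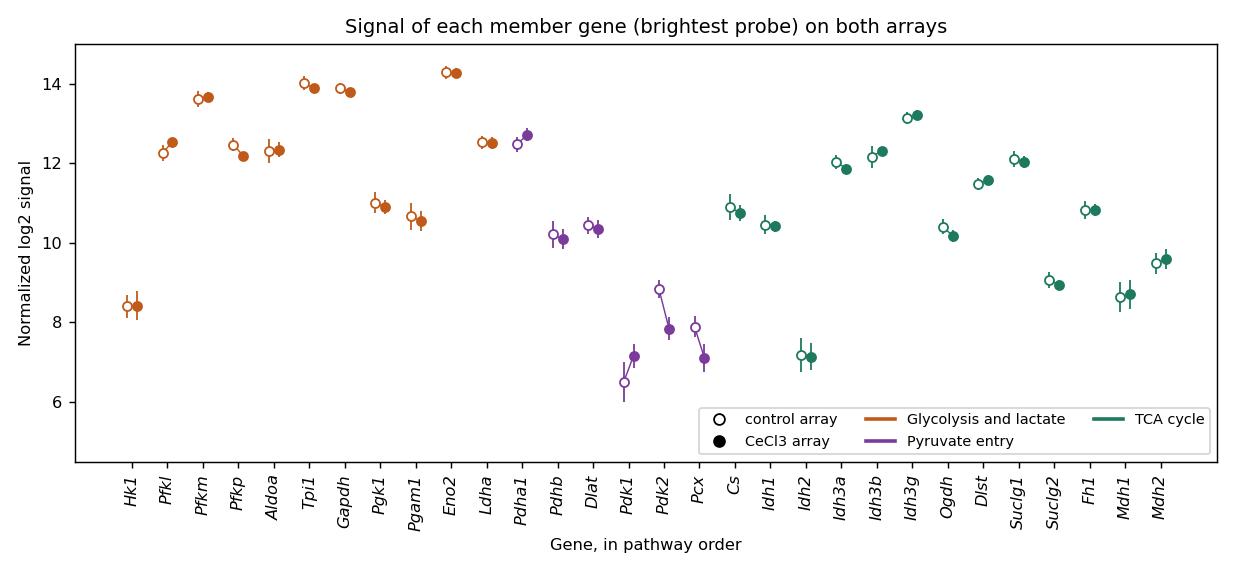
Normalized log2 signal of the 30 detected member genes in pathway order, on the control array (open) and the CeCl3 array (filled), with 95% intervals over beads. Signals range from 6.49 to 14.29, and the pairs of points nearly coincide except for Pdk1, Pdk2 and Pcx.

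On their brightest probes, all 13 detected TCA cycle genes lay within 1.2-fold and had bead intervals that held 0. Their log2 differences ran from -0.24 for Ogdh to 0.15 for Idh3b. Citrate synthase (Cs), which joins acetyl-CoA to oxaloacetate, had log2 signals of 10.75 on the CeCl3 and 10.90 on the control array (-0.15, -0.53 to 0.23). At the next oxidation, the subunits of the NAD-dependent isocitrate dehydrogenase lay on both sides of 0. The catalytic subunit Idh3a was at -0.16 (-0.37 to 0.05), and the further subunits Idh3b and the X-linked Idh3g at 0.15 (-0.15 to 0.45) and 0.06 (-0.14 to 0.26). Both Idh3g probes gave 0.06. The NADP-dependent enzymes, cytosolic Idh1 and mitochondrial Idh2, lay at -0.04 and -0.03.

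On these probes, the oxoglutarate dehydrogenase complex gave the value nearest to a clear interval. Its E1 subunit Ogdh had log2 signals of 10.17 and 10.41 (-0.24, -0.48 to 0.005), while its E2 subunit Dlst lay at 0.10 (-0.10 to 0.30) and at -0.01 on a second RefSeq probe. A dimmer Dlst probe, designed on a cDNA clone, gave 0.66 (0.44 to 0.87). Of the succinyl-CoA ligase subunits, the shared alpha subunit Suclg1 lay at -0.07 (0.23 on its second probe) and the GTP-specific Suclg2 at -0.12. The ATP-specific Sucla2 was not detected. Fumarase, Fh1, lay at -0.01 (-0.29 to 0.27). The malate dehydrogenases, cytosolic Mdh1 and mitochondrial Mdh2, lay at 0.08 (-0.44 to 0.61) and 0.11 (-0.25 to 0.47).

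Probes of the same gene are the only internal check in these data. In 12 member genes with at least 2 detected probes, the 2 brightest gave the same direction in 4 (Hk1, Idh3b, Idh3g and Pfkl), where 55.3% of 3652 such genes did. The median gap between these probes was 0.21 on the log2 scale, and 0.27 over all genes. In 10 of the 12 genes this gap exceeded the difference between the arrays on the brighter probe, as it did in 2422 of the 3652. Pdk1, Pdk2 and Pcx have no second detected probe and so no such check. For Hk1, Idh3b and Pdhb the second probe was designed on a cDNA clone, a kind of probe described next, which weakens the check. The second probes of Idh3b and Pgk1 passed detection for CeCl3 only.

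Probes designed on cDNA clones, here all probes with a GenBank accession outside RefSeq, differed in distribution from those designed on RefSeq transcripts. All 4 detected clone probes of the members were higher on the CeCl3 array, at 0.71 (0.24 to 1.18) for Pdhb, 0.66 (0.44 to 0.87) for Dlst and 0.49 (-0.13 to 1.11) for Hk1. The clone probe of Idh3b passed detection for CeCl3 only, where it was higher by at least 1.38-fold. The brightest RefSeq probes of the same 4 genes lay at -0.12, 0.10, 0.02 and 0.15. This was a feature of the arrays as a whole. Of 904 named detected clone probes, 35.8% were higher by 1.5-fold or more and 4.31% lower by as much, with a median of 0.31, against 7.17% and 6.8% of 14407 RefSeq probes, with a median of -0.04. Which part of a transcript a clone probe reads is not given in the files, and the BeadChip and the treatment cannot be told apart here either.

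**Figure D4:**
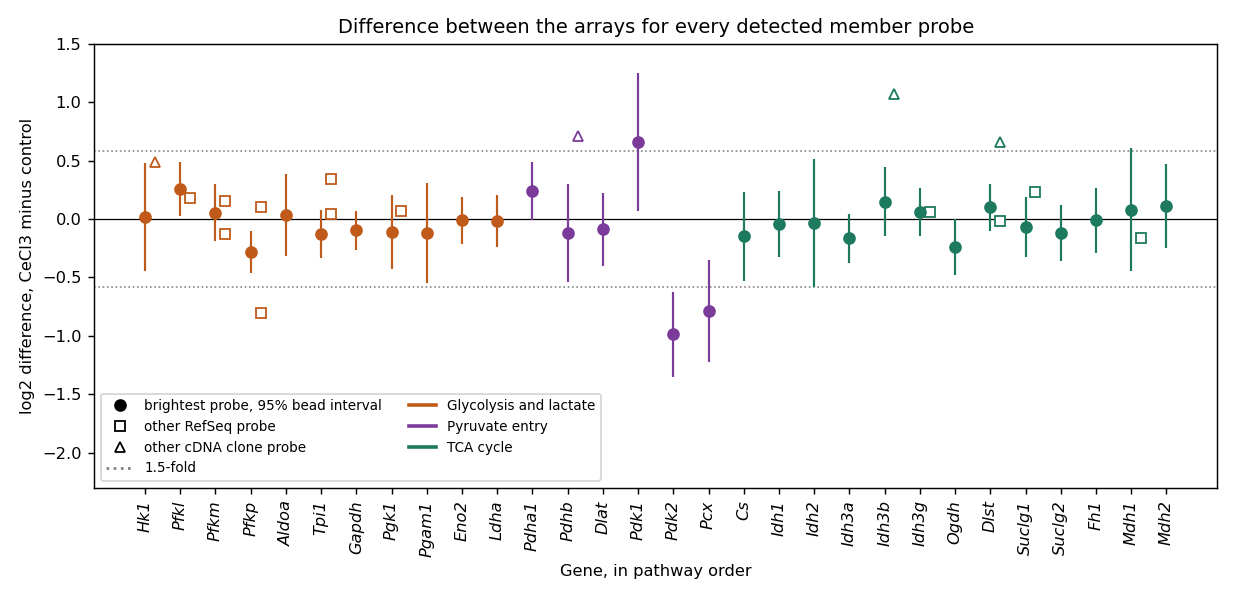
Log2 difference (CeCl3 minus control) of the 46 detected member probes, in pathway order. Filled circles are the brightest probe of a gene with its 95% interval over beads, squares are other RefSeq probes, triangles are other cDNA clone probes and dotted lines mark 1.5-fold. The 4 triangles all lie above 0, and among the filled circles only Pdk1, Pdk2 and Pcx lie past the dotted lines.

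Further genes of glycolysis, outside the 37, were read from a list of 24, of which 11 were detected. The bead interval lay above 0 in 1 (Pfkfb2) and below 0 in 2 (Hkdc1 and Adpgk), and the median was -0.06. Pfkfb2 and Pfkfb4, which make or remove the activator of phosphofructokinase, lay at 0.40 (0.11 to 0.69) and 0.24 (0.00 to 0.48, just below 0 at its lower end). Hkdc1, a hexokinase-like gene, lay at -0.63 (-1.17 to -0.09), and the ADP-dependent glucokinase Adpgk at -0.53 (-0.94 to -0.11). The other detected Adpgk probe, designed on a cDNA clone, passed detection for CeCl3 only. Its log2 signal of 5.95 was near the lowest detected values, and no fold is given for it. Pkm, the pyruvate kinase that ends glycolysis, had a log2 signal of 13.48 on each array (-0.25 to 0.25 around a difference of 0.00). Aldoc, the astrocyte aldolase, lay at 0.21 (-0.11 to 0.53).

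Of 13 further TCA cycle genes 7 were detected, with a median of -0.08, an interval above 0 in 1 and below 0 in 0. Sdhaf1, an assembly factor of succinate dehydrogenase, lay at 0.52 (0.07 to 0.97) on its brighter probe and at 0.15 (-0.28 to 0.57) on the other, while the succinate dehydrogenase subunits Sdhb and Sdhc lay at -0.08 and 0.03. The mitochondrial malic enzyme Me2 lay at -0.35 (-0.75 to 0.04). The aconitase Aco1 and the flavoprotein subunit Sdha were not detected.

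Of 12 genes for glucose and lactate transport 8 were detected, with a median of -0.06, and 1 had an interval below 0. The main glucose transporters of the blood-brain barrier and of neurons, Slc2a1 and Slc2a3, lay at -0.13 (-0.34 to 0.08) and -0.06 (-0.28 to 0.16). The insulin-responsive transporter Slc2a4, on a dim probe with log2 signals of 6.35 and 7.04, lay at -0.68 (-1.28 to -0.09). Bsg, the chaperone of lactate transporters, passed detection for CeCl3 only, higher by at least 1.31-fold on a dim probe (6.53 and 5.49). Its second probe, detected on neither array, went the other way, at -0.98. The lactate transporters Slc16a1, Slc16a3 and Slc16a7 were not detected.

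Cytosolic reducing equivalents are carried into mitochondria by the malate-aspartate shuttle, which uses Mdh1 and Mdh2, and by the glycerol phosphate shuttle. Of 8 further genes of these shuttles 5 were detected, with a median of -0.20. Slc25a12, the aspartate-glutamate carrier of neurons, had log2 signals of 11.22 and 10.77 (0.45, 0.17 to 0.72), and its second probe lay at 0.08 (-0.23 to 0.39). The glycerol phosphate dehydrogenase Gpd1 lay at -0.46 (-1.01 to 0.08), and the aspartate aminotransferase Got2 at 0.19 (-0.04 to 0.42).

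**Figure D5:**
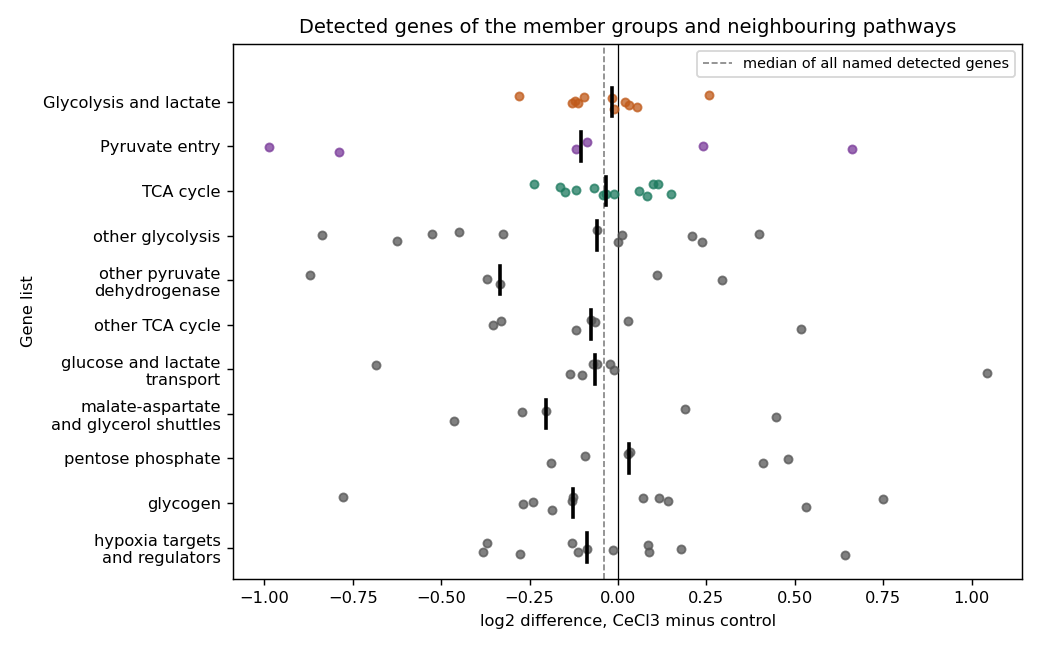
Log2 differences (CeCl3 minus control) of the detected genes of each member group and of neighbouring pathways, a point per gene with the group median as a black bar, the dashed line being the median of all named detected genes (-0.04). Glycolysis and TCA cycle member genes lie close to 0, and the genes of pyruvate entry and of the further pyruvate dehydrogenase list spread more widely, from -0.99 to 0.66. Some neighbouring lists spread about as widely, such as glucose and lactate transport (-0.68 to 1.04) and glycogen (-0.78 to 0.75). Their outermost points include Bsg and Stbd1, each detected on 1 array alone.

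Cell type markers are given beside these values, and their part in them was not tested. Neuron markers had a median of 0.21, with 6 of 10 detected members higher and a summed linear signal of 122270 on the CeCl3 and 123952 on the control array. Map2 and Nefm, of the neuronal cytoskeleton, lay at 0.39 (-0.07 to 0.85) and 0.31 (-0.16 to 0.79). The interval of a neuron marker lay above 0 in 1 (Rbfox3, at 0.22) and below 0 in 1 (Thy1, at -0.29). Oligodendrocyte markers had a median of -0.21, with 9 of 12 lower and summed signals of 93701 and 112605. The myelin genes Mal and Ugt8a lay at -0.70 and -0.49, and a second Mal probe at -1.23. Opalin, Sox10 and Mobp were the 3 higher members, at 0.16, 0.04 and 0.01 on their brightest probes. The other Mobp probes ran from -0.69 to 0.43. Endothelial markers had a median of -0.21 (6 of 8 lower, 7085 and 8069) and microglial markers one of -0.06 (7 of 10 lower, 4810 and 5164). The endothelial genes Tek and Cdh5 lay at -0.56 and 0.44 (-0.21 on a second Cdh5 probe), and the microglial genes C1qc and Tyrobp at -0.30 and -0.28. The microglial genes C1qa, Tmem119 and Aif1 lay higher, at 0.26, 0.23 and 0.22, with -0.52 on a second Aif1 probe. Erythrocyte markers had a median of 0.11 (3 of 5 higher, 136691 and 135645), with Alas2 at 0.54 and Hbb-bs, on a cDNA clone probe, at 0.18. Hba-a1 and Hbb-bt lay lower on their brightest probes, at -0.11 and -0.08. The defining neuronal marker Snap25, the astrocyte markers Glul and S100b and the microglial marker Itgam were not detected on either array.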

How the data were processed

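Hippocampal RNA of 1 CeCl3 and 1 control sample was measured on Illumina bead arrays, and groups were taken from the labels. Per the file headers, the deposited table gives a mean signal intensity per probe, the standard error of that signal over beads, a count of beads (12 to 157 per probe) and a detection p-value. With 27.1% of its values below 0, the deposited intensity had background removed, and its percentiles differ between arrays by at most 0.509%, so it appears normalized already. The intensity values of the series matrix, deposited by the authors, rank probes identically (Spearman correlation 1) but have unequal quantiles (medians 15.9 and 14.2), so their between-array scaling stays unknown. The submitters' processing notes name BeadStudio. Its settings and version were not given in the sources used here.

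Background was corrected by limma 3.58.1 (R 4.3.3) with normexp, inferring negative controls from detection p-values and adding an offset of 16. Quantile normalization and log2 followed. The offset pulls differences of dim probes towards 0. A probe was detected at a detection p-value under 0.01. A gene's value is that of its brightest detected probe, by mean log2 signal. The bead error of a difference was carried to the log2 scale, and the steps were tested on simulated data. There, changes were placed in bright probes only, and the noise was drawn in part from the same bead errors. Recovery of a change was therefore not tested for probes as dim as those of Pdk1, Pdk2 and Pcx. For a probe detected on 1 array alone the fold is a lower bound, taken against the floor of the other array, its lowest detected value on the log2 scale (5.87 for CeCl3, 6.14 for control). The bound leaves out bead error, and the lower CeCl3 floor raises it for probes detected for control only. The number of arrays limits the precision.

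The annotation gave 34885 probes 1 gene symbol, 18 several and 10378 none. By gene number 34807 matched a RefSeq table of GRCm38.p6, which changed 0 symbols. The array files name no build, so coordinates are given for RefSeq promoter windows only.

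The members and lists were chosen with earlier results of these data known. Every detected member is named, and of each other list the 2 genes detected on both arrays with the largest difference. The list of hippocampal genes was added after the files were seen. Other genes named from a list were chosen for their role or their direction after their values were seen. No test was possible with 1 array per group. Alternatives changed the offset, background correction, normalization, deposited table, detection filter and choice of probe.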

Additional observations from a re-analysis of the deposited data

How the results depend on the processing

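No paired analysis was possible because each group has 1 array. Under 10 alternatives Pdk2 stayed between -1.07 and -0.77, Pdk4 between -1.03 and -0.76, Pdk3 between -0.46 and -0.19, Pcx between -0.86 and -0.53 and Pdk1 between 0.51 and 0.99. Each of these genes has 1 detected probe, a RefSeq probe detected on both arrays. Changes of the detection filter or of the choice of probe could therefore not move their values. Only the alternatives on offset, background correction, normalization and deposited table could do so. Pfkl (0.22 to 0.40) and Pfkp (-0.33 to -0.23) kept their directions too. The number of members past 1.5-fold was 3 in the main setting (1 higher, 2 lower), 2 with an offset of 50 (without Pdk1), 2 in the series matrix as deposited (1 higher, 1 lower, without Pcx) and 4 with the mean of detected probes, where Idh3b joined at 0.61. Idh3b joined through its cDNA clone probe, which was detected for CeCl3 only. In the series matrix as deposited the median of all genes was 0.18 in place of -0.04, the TCA cycle median moved to 0.13 and 22 of 30 members were higher, against 11 of 30. The glycolysis median was 0.05 there. The glycolysis minus TCA cycle difference ranged from -0.09 to 0.02 and so has no settled direction. The pyruvate entry median changed sign to 0.06 in the matrix as deposited and to 0.08 with the mean of probes, and with the latter the further pyruvate dehydrogenase list moved from -0.33 to -0.10. Signal over background limits the reading of Pdk1, Pcx and Idh2, whose log2 signals lie below 8 on both arrays. It also limits that of Pdk2, whose log2 signal was 7.84 on the CeCl3 array.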

Other observations

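Neighbouring routes of glucose use are given here as values. In the pentose phosphate pathway, which makes NADPH and ribose, 6 of 10 genes were detected, with a median log2 difference of 0.03. Transketolase, Tkt, had log2 signals of 10.24 on the CeCl3 and 9.76 on the control array (0.48, bead interval 0.06 to 0.90) on its brightest probe. Its other detected probes gave 0.08 (-0.40 to 0.55) and -0.19 (-0.64 to 0.26) and did not share that difference. The lactonase Pgls, with 1 detected probe, had 9.68 and 9.27 (0.41, 0.04 to 0.78). On the brightest probes these were the only genes of the 6 whose interval lay clear of 0.

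Of 15 glycogen genes 11 were detected, with a median of -0.13. The liver-type glycogen phosphorylase Pygl, on a dim probe, had log2 signals of 7.45 and 6.70 (0.75, 0.10 to 1.40), while the brain and muscle types Pygb and Pygm lay at -0.13 and -0.19. Glycogenin, Gyg, lay at -0.27 (-0.77 to 0.23), and at -0.74 (-1.37 to -0.11) on a dim second probe. Stbd1, a starch-binding protein, passed detection for control only and was lower after CeCl3 by at least 1.62-fold.

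Of 19 hypoxia-inducible factor targets and regulators 11 were detected, 4 higher and 7 lower, with a median of -0.09. Arnt, the common partner of hypoxia-inducible factors, had log2 signals of 9.67 and 9.03 (0.64, 0.40 to 0.89). The oxygen-regulated subunits Hif1a and Epas1 lay at -0.28 (-0.65 to 0.10) and -0.37 (-0.73 to -0.01), and the target Ankrd37 at -0.38 (-1.04 to 0.28). The targets Vegfa and Ndrg1 lay at -0.09 and -0.13, and P4ha2, Kdm3a and Egln1 at 0.18, 0.09 and 0.09, all with intervals that held 0 on the brightest probe. The other Kdm3a probes gave -0.36 and 0.63, the other Egln1 probes -0.17 and 0.65, and the second Ndrg1 probe -0.36. The target P4ha1 lay at -0.01 on a cDNA clone probe. On a dimmer RefSeq probe, with log2 signals of 5.90 and 6.87, it lay at -0.97 (-1.72 to -0.22).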
